A study of Mus musculus with 7 samples.

Results

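The genes described here are 10 integrin subunits of C2C12 myotubes, the alpha subunits Itga1, Itga3, Itga4, Itga5, Itga6, Itga7, Itga9 and Itgav and the beta subunits Itgb1 and Itgb5. They were taken by symbol from the 26607 genes listed in the files, and all 10 were among the 19144 genes tested. C2C12 myoblasts, an established mouse line, fuse into multinucleated myotubes in low serum. RNA-seq was made from 3 unstimulated control libraries, numbered 1, 3 and 4, and from 4 libraries of myotubes given electrical pulse stimulation (EPS), numbered 1 to 4. According to the methods of the study, EPS was applied 3 days after the switch to differentiation medium, at 1 Hz for 24 h, and the cells then rested for 1 h. EPS makes cultured myotubes contract in the absence of nerve and of other tissues. All libraries come from a single cell line, and the labels do not say whether each came from a separate culture, so the p-values measure the spread between these libraries only.

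Integrins are cell surface receptors made of an alpha and a beta chain, which bind the extracellular matrix outside the cell and the actin cytoskeleton inside it through talin, kindlin and the complex of integrin-linked kinase. The alpha chain sets most of the choice of ligand. In muscle the pair of alpha7 and beta1 binds laminin at the sarcolemma and at the myotendinous junction, and alpha4, alpha5, alpha6 and alpha9 are known from myoblasts and developing muscle. The files give 1 value per gene, so splice forms such as those of alpha7 and beta1 could not be separated.

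The values are CPM, the reads of a gene scaled to a common total per library. Recovered totals were between 16616917 and 22120641 reads, and 3 reads, taken as the smallest count that can be told from 0, were worth between 0.136 and 0.181 CPM, a limit that covers counting error only. Control replicate 4 stood apart from the rest, with 14014 genes above 0 against 16144 to 16984 in the other libraries. Although it had the highest total, it had only 359 genes with 1 to 5 reads, against 2670 to 3181 elsewhere, so a low value or a 0 in this library is not comparable with those of the others, and the limit of 3 reads may not hold for it. The myotube markers were strong in every library, with a summed level of 10 genes from 11018 to 16428 CPM in the control and from 8848 to 12600 CPM in the EPS group, which overlap. Of these 10 markers 9 had a negative log2 fold change, with a median of -0.45, and 1, Actn2, passed P under 0.01. The part of this difference in the results on integrins was not tested. Of 5 endothelial markers, all were under 1 CPM in each library, as were 4 of 5 leukocyte and 3 of 4 Schwann cell markers. All 5 fibroblast markers reached 1 CPM. Their summed levels were 89.4 to 158 CPM in the control and 58.8 to 152 CPM in the EPS group. Of these 5 markers 4 had a negative log2 fold change, with a median of -0.47. None passed P under 0.01 in limma, and 3 had a P under 0.05, beside 11.6% of tested genes. The groups separated for 1 marker that was higher and 1 that was lower in the EPS group. The part of the fibroblast markers in the results on integrins and their ligands was not tested. The summed level of 7 markers of myoblasts and cycling cells was 242 to 329.7 CPM in the control and 350.2 to 931 CPM in the EPS group, without overlap, although each marker alone overlapped and none passed P under 0.01 in limma (5 had a P under 0.05). The cell cycle genes Mki67, Top2a, Ccnb1 and Cdk1 had log2 fold changes of 1.27, 0.86, 1.38 and 0.94, whereas the myoblast genes Myf5, Pax7 and Id3 were at 0.20, -0.12 and -0.96. The part of this sum in the results on integrins was not tested. In bulk RNA, fewer cells of a kind and less RNA per cell cannot be told apart.

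Between the control and EPS groups, 2 of the 10 subunits differed at an unadjusted P under 0.01 in limma on log2(CPM + 1). Itga9 fell 7.11-fold in mean CPM, the only member that also passed the threshold of more than 2-fold, and Itga3 was 1.56-fold higher. Over all tested genes 4.17% passed P under 0.01 (4.27% of the genes with a mean of at least 1 CPM, as all members had), and 1.41% passed both thresholds (2.15% of the genes with a mean of at least 1 CPM). The other 8 subunits overlapped between the groups. The median log2 fold change of the 10 subunits was -0.13, beside 0.041 over all tested genes. Over the genes with a mean of at least 1 CPM it was 0.10. After Benjamini-Hochberg adjustment over all tested genes, none of the subunits reached an adjusted p under 0.05 in limma at a pseudocount of 1, where 0.141% of tested genes did. At an unadjusted P under 0.05 there were 2 subunits, beside 11.6% of tested genes. Of the subunits, Itga9 alone reached an adjusted p under 0.05 in limma with a pseudocount of 0.1 (adjusted p = 0.0311). In that fit 106 of 19144 tested genes did so. Itga9 alone also reached it in limma on genes of mean CPM of at least 1 (adjusted p = 0.00853). There 121 of 12256 genes did so. Itga9 was again the only subunit on recovered reads by quasi-likelihood and the exact test in edgeR and by DESeq2. In these tests 290, 454 and 497 of 19144 genes reached it, more than in the main fit.

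**Figure D1:**
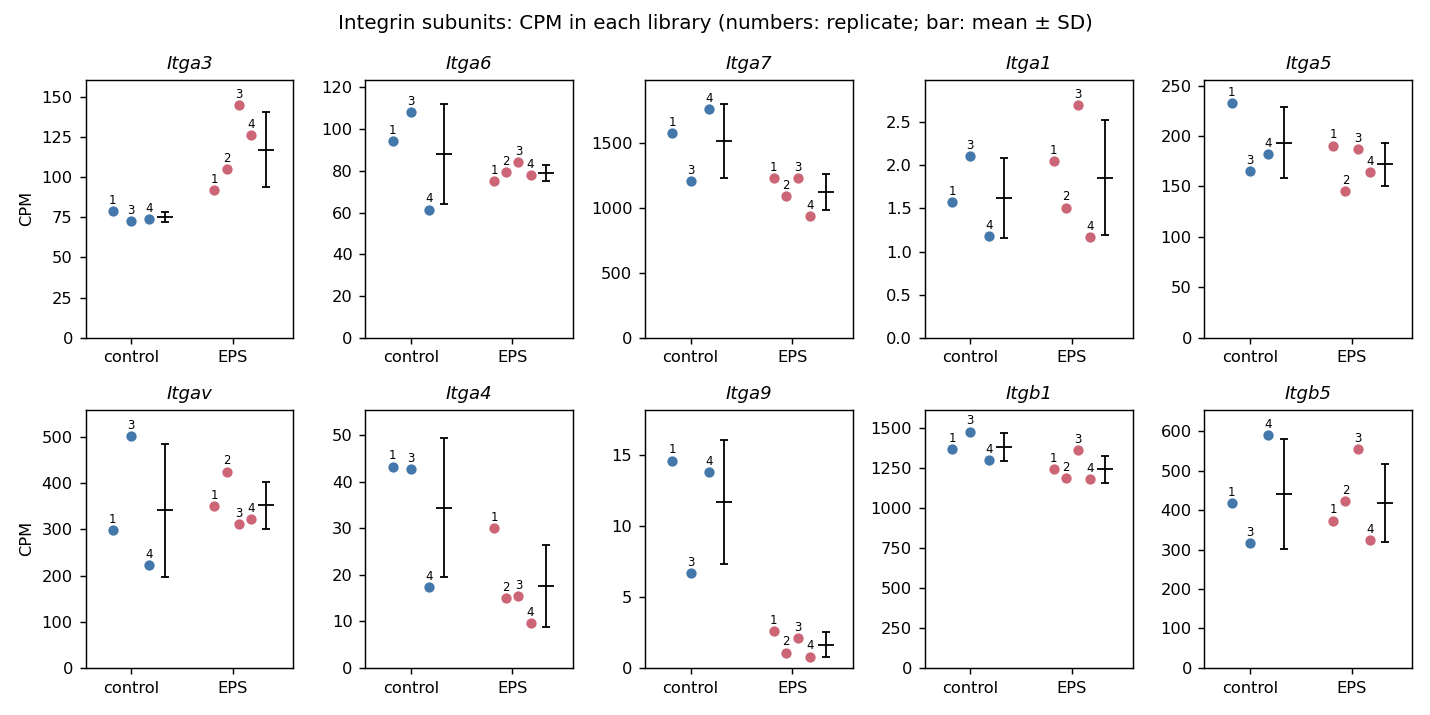
CPM of the 10 integrin subunits (vertical axes, each from 0) in 3 control and 4 EPS libraries, points numbered by replicate, with the mean and SD of each group as a bar. The EPS points of Itga9 lie below all control points and those of Itga3 above them, and the groups overlap in the other 8 panels.

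Per kb of exon, a scale on which levels of different genes can be compared, Itgb1 was the most abundant member, at 339 ± 21.9 CPM per kb in the control (SD, n = 3) and 305 ± 20.7 CPM per kb in the EPS group (SD, n = 4). Itga7 followed at 187 ± 34.8 and 139 ± 17.4 CPM per kb, and Itgb5 at 124 ± 39.2 and 118 ± 27.9 CPM per kb. Itga5, Itgav, Itga3, Itga6, Itga4, Itga9 and Itga1 came next, in this order of means in each group, from 39.2 down to 0.0870 CPM per kb in the control. Among neighbours in this order, the ranges over all 7 libraries did not meet between Itgb1 and Itga7, Itgb5 and Itga5, Itga3 and Itga6, or Itga6 and Itga4. Itga7 and Itgb5, Itga5 and Itgav, Itgav and Itga3, Itga4 and Itga9, and Itga9 and Itga1 did not separate in this way. Lengths are those of merged GENCODE M21 exons, and a myotube that uses only some of them would give a different level.

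Of the laminin receptors Itga3, Itga6 and Itga7, Itga3 alone passed P under 0.01, and the differences between the 3 genes were not tested. Itga3 (ENSMUSG00000001507.16), on chromosome 11 of GRCm38 from 95044474 to 95076801, encodes a receptor for laminins of basement membranes. Its level was 78.9, 72.6 and 73.8 CPM in control libraries 1, 3 and 4, against 91.7, 104.8, 145 and 126 CPM across EPS libraries 1 to 4. All EPS libraries lay above the highest control library, as in 7.76% of tested genes, and EPS replicates 3 and 4 were the highest. The log2 fold change was 0.61 (SE 0.18, 95% interval 0.21 to 1.01, limma adjusted p = 0.219; exact permutation test, p = 0.0571). The unadjusted P of 0.00712 did not hold under every processing: it was 0.0122 after quantile normalization, 0.0280 after median-of-ratios scaling and 0.0237 after TMM scaling, and on recovered reads 0.0234 by quasi-likelihood in edgeR and 0.0212 with DESeq2, with the direction kept. It also rose above 0.01 when control replicate 1, 3 or 4 or EPS replicate 3 or 4 was left out, up to 0.0230.

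Itga7 (ENSMUSG00000025348.9), on chromosome 10 from 128933818 to 128958282, encodes the main laminin receptor of muscle fibers and had the highest CPM of the alpha subunits. It was at 1576, 1210 and 1763 CPM in control libraries 1, 3 and 4, against 1231, 1091, 1233 and 937 CPM across EPS libraries 1 to 4. Control replicates 1 and 4 lay above all EPS libraries, while control replicate 3 lay among them. The log2 fold change was -0.42 (95% interval -1.07 to 0.22, limma adjusted p = 0.617), so a difference was not shown and a fall of more than 2-fold lies within the interval. Itga6 (ENSMUSG00000027111.15), on chromosome 2 from 71745616 to 71858416, encodes a laminin receptor of myoblasts and epithelia. It was between 61.4 and 108 CPM in the control and between 75.1 and 84.0 CPM in the EPS group, with a log2 fold change of -0.11 (95% interval -0.56 to 0.33), which became 0.054 without control replicate 3. Its spread was wider among the 3 control libraries, where control replicate 4 was lowest, than among the 4 EPS libraries.

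The collagen receptor Itga1 (ENSMUSG00000042284.10), on chromosome 13 from 114953096 to 115101964, had the fewest reads of the members in the control, and 22 to 59 reads per library in all. Its level was 1.62 ± 0.467 CPM in the control (SD, n = 3) and 1.86 ± 0.667 CPM in the EPS group (SD, n = 4), for a log2 fold change of 0.11 (95% interval -0.42 to 0.64). Its sign changed without control replicate 4, to -0.015, and without EPS replicate 3, to -0.023. Of its exon bases, 685 are shared with Gm49395 on the same strand, so part of its reads could belong to that gene model.

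Itga5 and Itgav encode the receptors for fibronectin, vitronectin and other ligands with an RGD motif. Itga5 (ENSMUSG00000000555.8), on chromosome 15 from 103344286 to 103366763, was between 165 and 233 CPM in the control and between 146 and 191 CPM in the EPS group, for a log2 fold change of -0.16 (95% interval -0.56 to 0.23). Itgav (ENSMUSG00000027087.11), on chromosome 2 from 83724397 to 83806916, pairs with several beta chains, beta5 among them. It was at 299, 502 and 223 CPM in control libraries 1, 3 and 4, against 350.1, 425, 311 and 323 CPM across EPS libraries 1 to 4. The control libraries thus enclosed all EPS libraries, and the log2 fold change of 0.12 (95% interval -0.51 to 0.74) had no stable sign, being -0.15 without control replicate 4 and 0.44 without control replicate 3. Of its exon bases, 634 overlap Gm13684 on the opposite strand.

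Itga9 and Itga4 form a subgroup of alpha chains that bind VCAM1, osteopontin and other ligands, with tenascin-C a ligand of alpha9 and fibronectin of both. Itga9 (ENSMUSG00000039115.13) lies on chromosome 9 from 118606690 to 118901003. Its reads numbered 250, 111 and 305 in control libraries 1, 3 and 4, against 56, 22, 46 and 15 reads across EPS libraries 1 to 4. These are 14.6, 6.68 and 13.8 CPM in the control and 2.61, 1.07, 2.10 and 0.797 CPM in the EPS group. All EPS libraries were below the lowest control library, as in 2.85% of tested genes. Control replicate 3 was over 2-fold lower than the other control libraries. The means were 11.7 ± 4.35 CPM in the control (SD, n = 3) and 1.64 ± 0.853 CPM in the EPS group (SD, n = 4). On the log2(CPM + 1) scale, which understates the change of low genes, the fold change was -2.25 (SE 0.36, 95% interval -3.07 to -1.43, limma adjusted p = 0.0692). An exact permutation test gave p = 0.0286, the smallest that 3 libraries against 4 allow. Leaving out each library in turn gave -2.58 to -2.07, and the tests on recovered reads gave -2.91 in edgeR's quasi-likelihood test, -2.82 in its exact test and -2.93 in DESeq2. Its adjusted p ranged over the alternatives from 1.28e-08 in DESeq2 to 0.510 with a replicate block on all libraries, and was under 0.05 in 5 of 18.

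Itga4 (ENSMUSG00000027009.18), on chromosome 2 from 79255426 to 79333123, was at 43.2, 42.7 and 17.3 CPM in control libraries 1, 3 and 4, against 30.1, 14.9, 15.4 and 9.61 CPM across EPS libraries 1 to 4. Control replicates 1 and 3 were above all EPS libraries, and control replicate 4 was below EPS replicate 1, so the groups overlapped. The log2 fold change was -0.94 (SE 0.42, 95% interval -1.89 to 0.01, limma adjusted p = 0.438; exact permutation test, p = 0.143). Itga4 passed P under 0.01 and 2-fold without control replicate 4, at -1.36, and with all libraries by quasi-likelihood in edgeR, at -1.06, and in DESeq2, at -1.08. Without control replicate 1 or 3 or EPS replicate 2, 3 or 4, its limma P was 0.0909 to 0.164. The log2 fold change was then -0.92 to -0.71. Of its exon bases, 1124 overlap Cerkl on the opposite strand, which was at most 0.117 CPM.

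Neither beta chain passed the test. Itgb1 (ENSMUSG00000025809.15), on chromosome 8 from 128685654 to 128733200, encodes the partner of most of these alpha chains. It was at 1368, 1478 and 1300.2 CPM in control libraries 1, 3 and 4, against 1241, 1186, 1364 and 1182 CPM across EPS libraries 1 to 4. EPS replicate 3 lay within the control range and the other EPS libraries just below it, with a log2 fold change of -0.15 (95% interval -0.74 to 0.43, limma adjusted p = 0.865). Itgb5 (ENSMUSG00000022817.15), on chromosome 16 from 33829665 to 33949338, was between 316 and 591 CPM in the control and between 325 and 555 CPM in the EPS group, for a log2 fold change of -0.06 (95% interval -0.67 to 0.55) whose sign changed without control replicate 4, to 0.18. Both intervals include changes as large as that of Itga3, so equal levels were not shown.

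**Figure D2:**
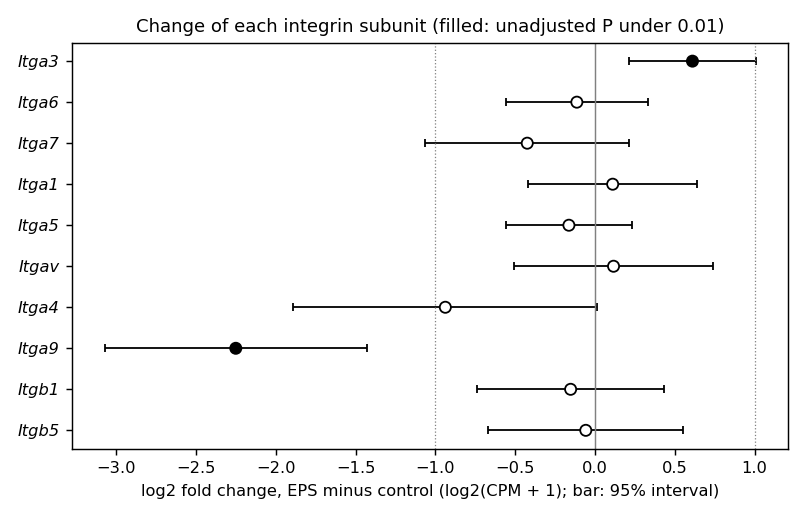
Log2 fold change, EPS minus control, of each integrin subunit on the log2(CPM + 1) scale, with the 95% interval from limma; filled points have an unadjusted P under 0.01 and dotted lines mark 2-fold. The interval of Itga9, -3.07 to -1.43, lies wholly past 2-fold, that of Itga3 lies above 0, and the other 8 cross 0.

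Ratios to Itgb1 within a library do not depend on how the library was scaled. For each 1000 reads of Itgb1 there were 10.7, 4.52 and 10.6 reads of Itga9 in control libraries 1, 3 and 4, against 2.10, 0.903, 1.54 and 0.674 across EPS libraries 1 to 4. Of Itga3 there were 57.7, 49.1 and 56.8 reads in the control, and 73.9, 88.3, 106.3 and 107 in the EPS group. For both genes the groups separated as they did in CPM, and the mean log2 ratio was lower by a factor of 6.75 for Itga9 and higher by a factor of 1.71 for Itga3 in the EPS group. The ratios of the other subunits to Itgb1 overlapped between the groups, those of Itga7 ranging from 819 to 1356 in the control and from 793 to 992 in the EPS group.

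As shares of the summed CPM per kb of the 8 alpha subunits, Itga7 made up 65.3% ± 7.59 in the control (SD, n = 3) and 58.4% ± 2.52 in the EPS group (SD, n = 4). The sum itself was lower in each EPS library, from 211 to 255 CPM per kb, than in each control library, from 258 to 299 CPM per kb, so a share can be higher where the level is not. Itga3 made up 4.62% ± 0.293 and 8.68% ± 1.88, with the groups not overlapping. Itga5 was at 13.7% ± 1.80 and 14.7% ± 1.38, and Itgav at 11.4% ± 5.86 and 13.9% ± 2.40. Itga9 was a small part of the repertoire in the control, 0.523% ± 0.163, and smaller in the EPS group, 0.0879% ± 0.0404. The alpha repertoire was thus led by Itga7 in every library, at no less than 55.0%, and the separated subunits were minor ones.

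**Figure D3:**
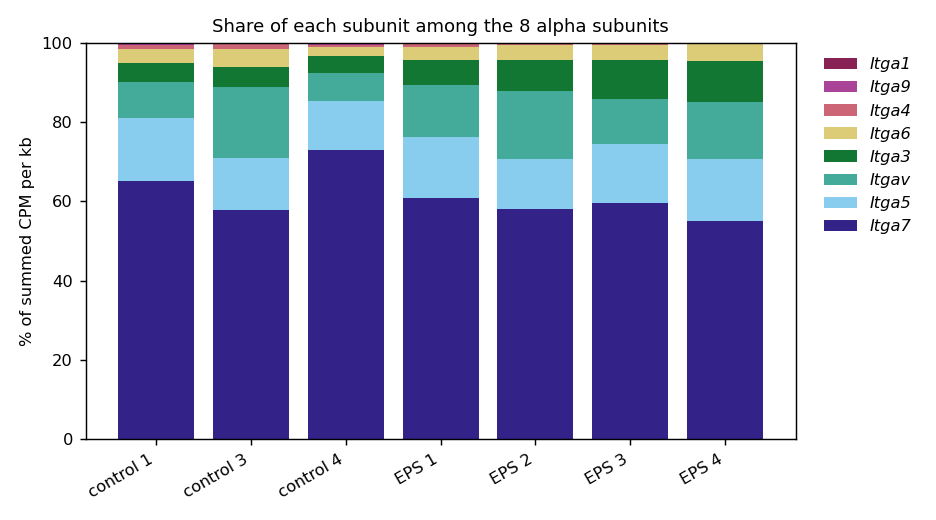
Share of each alpha subunit in the summed CPM per kb of the 8 alpha subunits (vertical axis, percent) in each of the 7 libraries. Itga7 is the largest part of every bar, the band of Itga3 is wider in the 4 EPS libraries, from 6.42% to 10.5%, than in the control, from 4.33% to 4.92%, and Itga9 and Itga1 are barely visible.

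Over the 7 libraries and the 12255 other genes with a mean of at least 1 CPM, the genes whose log2(CPM + 1) followed Itga9 most closely were Scml4, Slc38a6, Tgfb3, Mfsd7a and Ak5, with Pearson correlations of 0.993, 0.989, 0.989, 0.986 and 0.985. All 7 libraries share the difference between the groups, which carries much of such a correlation, and no p-value is given. Tgfb3, a ligand of the TGF-beta receptors, was at 339 ± 60.4 CPM in the control (SD, n = 3) and 163 ± 32.3 CPM in the EPS group (SD, n = 4). Like Itga9, these genes were lower in control replicate 3 than in control replicates 1 and 4. They were chosen by their correlation with Itga9 over all 7 libraries, so such likeness follows from the choice. Among the members themselves, Itga9 and Itga7 had the highest correlation, 0.914, and Itga3 and Itga9 the lowest, -0.80.

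Stretches upstream of the start are shown for the members whose window at the GENCODE start holds CAGCTG, an E-box form that myogenic bHLH factors such as MyoD and myogenin bind, since the members include genes known to change during myogenesis. Windows of 250 bases upstream of RefSeq starts (GRCm38.p6) were matched for 8 of the 10 members, and 6 of the 9 windows lay within 100 bases of the GENCODE start and held no exon base. Of these 6, those of Itga1, Itga4 and Itgb5 held CAGCTG, which reads the same on both strands, beside 13.0% of 32851 windows of this length, to which the limits on distance and exon bases were not applied. Without these limits 4 of the 9 windows held it, the fourth being that of Itga9, which was set aside because it lies inside the gene, 105002 bases from the GENCODE start. Each stretch of 60 bases is given 5′ to 3′ on the strand of the gene with the motif in capitals, from chr13:115102095-115102154 on the minus strand, chr2:79255274-79255333 on the plus strand and chr16:33829516-33829575 on the plus strand.
Itga1: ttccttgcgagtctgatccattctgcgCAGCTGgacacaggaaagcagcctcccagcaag
Itga4: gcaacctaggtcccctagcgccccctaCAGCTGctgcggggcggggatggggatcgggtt
Itgb5: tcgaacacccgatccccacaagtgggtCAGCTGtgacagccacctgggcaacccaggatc
The motif begins 163 bases before the start in Itga1, 125 in Itga4 and 122 in Itgb5. A match is a description of the letters and not a binding site, and none of these 3 genes passed P under 0.01.

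Of the other 17 integrin genes, Itgb7 rose and Itga8 was lower at P under 0.01, and the other 15 did not pass, beside 4.17% of all tested genes that did. Itgb7, a chain known from leukocytes that pairs with alpha4, had 4, 4 and 0 reads in control libraries 1, 3 and 4, against 30, 41, 75 and 172 reads across EPS libraries 1 to 4. Its levels in the EPS group were 1.40, 2.00, 3.43 and 9.13 CPM, highest in EPS replicate 4. The log2 fold change was 1.88 (SE 0.44, limma adjusted p = 0.139) and was 1.46 without EPS replicate 4. Without control replicate 4, whose 0 reads are not comparable with the low counts of the other libraries, it was 1.78. The pseudocount of 1 holds this value down, since the log2 fold change of Itgb7 was 3.82 with a pseudocount of 0.1 (adjusted p = 0.0378), and on recovered reads 4.60 by quasi-likelihood in edgeR, 4.67 by its exact test and 4.62 with DESeq2. Over all alternatives its adjusted p was between 2.77e-06 and 0.530. The summed level of 5 leukocyte markers was 0.816 to 1.99 CPM in the control and 1.49 to 2.87 CPM in the EPS group. Of these, Csf1r was higher in every EPS library, at no more than 0.69 CPM, Cd68 reached 2.07 CPM, Lyz2 0.904 CPM and Ptprc 0.0602 CPM, and Adgre1 was at 0. The part of leukocyte RNA in the level of Itgb7 was not tested. Itga8 had 13 reads or fewer in each library, and its P passed 0.01 in only 5 of 17 alternatives. Itgb8, another partner of alphav, was at 8.55 ± 3.42 CPM in the control (SD, n = 3) and 16.5 ± 4.04 CPM in the EPS group (SD, n = 4), and did not pass, with a log2 fold change of 0.91 (limma adjusted p = 0.320).

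Inside the cell, 39 of 40 listed genes of the integrin adhesion complex were tested, of which Lims2 and Sorbs3 were higher and 3 genes lower at P under 0.01, where 4.17% of all tested genes passed. Sorbs3, the gene of vinexin, which binds vinculin, had a log2 fold change of 0.51, and its P stayed under 0.01 in only 1 of 18 alternatives. The median of the 39 was 0.032 on the log2 scale. Lims2, which encodes the adaptor PINCH2 of the complex of integrin-linked kinase, rose, with means of 2.61 ± 0.835 CPM in the control (SD, n = 3) and 9.53 ± 4.12 CPM in the EPS group (SD, n = 4) and a log2 fold change of 1.49 (limma adjusted p = 0.138). Every EPS library, from 6.19 to 15.0 CPM, was above the control libraries, from 2.04 to 3.57 CPM. Itgb1bp2, which encodes melusin, a muscle protein that binds the tail of beta1, was at 96.1, 98.1 and 125 CPM in control libraries 1, 3 and 4, against 52.9, 62.4, 47.9 and 55.3 CPM across EPS libraries 1 to 4. The groups were well apart, with a log2 fold change of -0.95 (SE 0.16, limma adjusted p = 0.0712), just under 2-fold, and P stayed under 0.01 in all 18 alternatives.

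Pxn, the gene of the scaffold paxillin, was at 146 ± 24.1 CPM in the control (SD, n = 3) and 95.9 ± 3.09 CPM in the EPS group (SD, n = 4). Its log2 fold change was -0.59 (limma adjusted p = 0.160), and its P was above 0.01 with the replicate block, on paired or on all libraries. Actn2, the actinin of the sarcomeric Z-disc, had a log2 fold change of -0.99, which lost P under 0.01 when any library but control replicate 3 or EPS replicate 3 was left out. The tested talin, kindlin and kinase genes that link integrins to actin did not pass P under 0.01. Tln1 was at 868 ± 198 CPM and 796 ± 265 CPM, Fermt2 at 182 ± 67.4 CPM and 197 ± 39.4 CPM, and Ilk at 181 ± 77.3 CPM and 164 ± 11.9 CPM in the control and EPS groups (SD, n = 3 and 4). The number of adhesion complex genes past P under 0.01 fell from 5 to 3 without control replicate 4, EPS replicate 1, EPS replicate 2 or EPS replicate 4.

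Outside the cell, most of the ligand genes did not pass P under 0.01, as 4.17% of all tested genes did. Of 12 genes of laminins and nidogens, 2 rose, Nid1 among them, and none was lower at P under 0.01, with a median log2 fold change of 0.13. Nid1, a linker of laminin and collagen networks, rose, with means of 265 ± 117 CPM in the control (SD, n = 3) and 796 ± 372 CPM in the EPS group (SD, n = 4) and EPS replicate 4 at 1352 CPM. Its log2 fold change was 1.58 (limma adjusted p = 0.152). Its P was above 0.01 without control replicate 4 and with the replicate block on all 7 libraries. Lama2 and Lama5, alpha chains of muscle and other basement membranes, did not pass.

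Of 23 genes of ligands of the fibronectin, RGD and alpha4 or alpha9 kind, 3 were lower and none higher at P under 0.01, again beside 4.17% of all tested genes in either direction, with a median log2 fold change of -0.34. Vcam1, a ligand of alpha4 and alpha9, was at 92.1, 119 and 90.5 CPM in control libraries 1, 3 and 4, against 56.3, 37.2, 30.6 and 50.6 CPM across EPS libraries 1 to 4. It thus fell in the same comparison as Itga9, with a log2 fold change of -1.21 (SE 0.23, limma adjusted p = 0.0914). Ctgf, a matricellular protein that binds several integrins, fell, with means of 134 ± 49.5 CPM in the control (SD, n = 3) and 50.7 ± 5.06 CPM in the EPS group (SD, n = 4), and its relative Cyr61 had a log2 fold change of -0.68. The call of Cyr61 held in 11 of 18 alternatives and was lost without control replicate 1 or 4 or EPS replicate 1, 2 or 3. Ctgf was highest in control replicate 4, at 191 CPM. Its log2 fold change was -1.33 (limma adjusted p = 0.0712) and stayed at -1.04 or lower without any library in turn. Other ligands of alpha9 did not pass: Tnc was at 334 ± 72.7 CPM and 221 ± 132 CPM, Svep1 at 13.0 ± 3.70 CPM and 8.32 ± 2.67 CPM, and Spp1 at 1150 ± 499.6 CPM and 942 ± 293 CPM in the control and EPS groups (SD, n = 3 and 4). Fn1, the ligand of alpha5, was at 10466 ± 2584 CPM and 8792 ± 2233 CPM. Of 10 collagen genes, Col13a1, a transmembrane collagen of muscle, was lower at P under 0.01, with a log2 fold change of -0.96, and 9 did not pass. The call of Col13a1 held in 11 of 18 alternatives and was lost without control replicate 1, 3 or 4 or EPS replicate 3 or 4. Of 16 genes of tetraspanins, syndecans and other membrane proteins that associate with integrins, Bsg and Sdc1 had a P between 0.01 and 0.05 in limma, and the other 14 were above 0.05, where 11.6% of all tested genes had a P under 0.05.

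**Figure D4:**
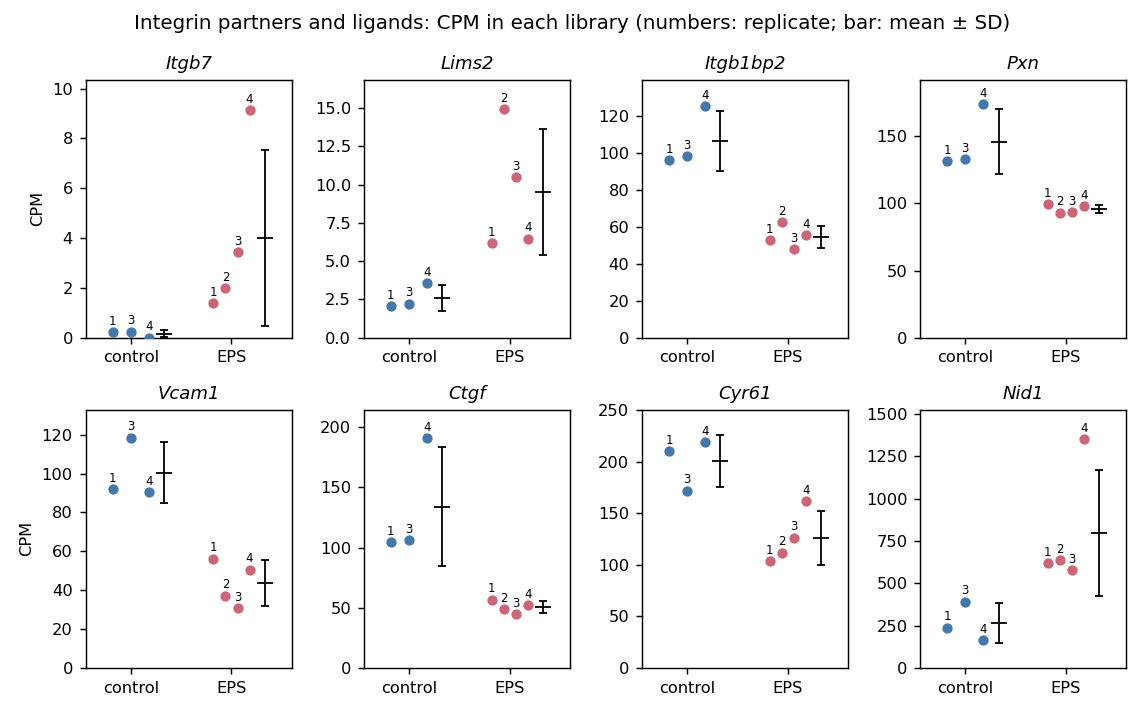
CPM (vertical axes, each from 0) of 8 integrin partners and ligands in 3 control and 4 EPS libraries, points numbered by replicate, with the mean and SD of each group as a bar. Itgb7, Lims2 and Nid1 are higher and Itgb1bp2, Pxn, Vcam1, Ctgf and Cyr61 lower in every EPS library than in every control library, with EPS replicate 4 far above the others for Itgb7 and Nid1. All 8 were chosen from genes at P under 0.01, a choice that favours such separation. Over all tested genes 7.76% were higher and 2.85% lower in this way.

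**Figure D5:**
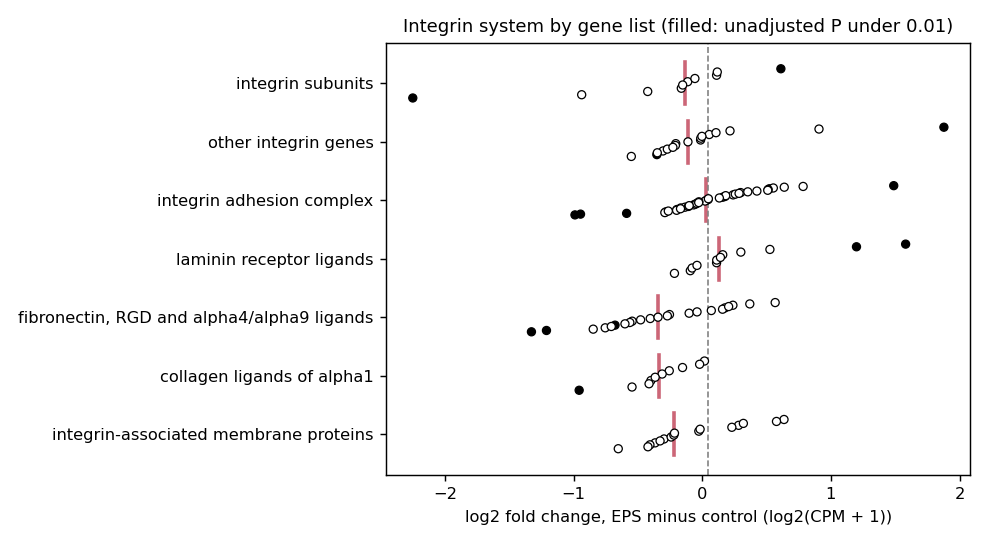
Log2 fold change, EPS minus control, on the log2(CPM + 1) scale (horizontal axis) of each tested gene in the 10 integrin subunits and in 6 lists of related genes; filled points have an unadjusted P under 0.01, red lines are list medians and the dashed line is the median of all tested genes, 0.041. Most points lie near 0, and Itga9 is the farthest to the left.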

How the data were processed

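The 7 RNA-seq libraries were 3 of control and 4 of EPS myotubes. Strand-specific poly(A) libraries were read as 100 bp pairs, and STAR 2.5.4b and GRCm38 are named in the processing notes of the submitters. The values deposited by the authors are CPM for each gene symbol. The read counter, annotation and strand setting are not given in the sources used here. All deposited CPM (100%) corresponded to whole reads within 0.01 read, from which reads were recovered. Groups and replicate numbers come from the labels.

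log2(CPM + 1) of genes above 0 in at least 1 library was fitted with limma 3.58.1 in R 4.3.3 (empirical Bayes with trend), without covariates, and p-values were adjusted by Benjamini-Hochberg over all tested genes. DEGs had P under 0.01 before adjustment and a change above 2-fold. "Rose" and "fell" are used of genes past both. For single genes, the difference in means was also set against all 35 splits (exact permutation test, two-sided). The alternatives changed the pseudocount (0.1, 0.5), the filter (mean of at least 1 CPM) and the scaling (quantile, median-of-ratios, TMM), or used edgeR 4.0.16 and DESeq2 1.42.0 on recovered reads, P under 0.001, a replicate block, or 1 library fewer. The tests were tried on simulated data. The members and gene lists were chosen with earlier results of these data known. Named beside the members were up to 4 genes per list at P under 0.01 with the largest change, and the 5 genes most correlated with the member of lowest P; other list genes are named as examples chosen after their values were seen. Tns2, Mymk and Adgre1 were matched by older symbols. Positions and exon lengths are those of GENCODE M21 on GRCm38, which may differ from the annotation of the authors. The values of 1 gene named by this rule are not reported here.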

Additional observations from a re-analysis of the deposited data

Results flagged for a closer look

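Among the 10 members and the 12 other genes chosen for naming, the level of Nid1 in EPS replicate 4, at 1352 CPM, was far from the other 3 EPS libraries, which were at 576 to 635 CPM. The gap made up 0.924 of the range of the group, above Dixon's 95% critical value for 4 samples. A gap above this critical value arises by chance in about 5% of groups, and groups of 3 were not tested. None of the 10 integrin subunits had a library this far from the rest of the EPS group.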

How the results depend on the processing

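The fall of Itga9 kept its direction and both thresholds in all 19 alternatives, and Itga3 kept its direction in all 19. The number of DEGs over all genes was 269, and became 601 with a pseudocount of 0.1, 629, 698 and 585 in edgeR's quasi-likelihood test, its exact test without TMM and DESeq2, and 106 at P under 0.001. Up-regulated genes were 68.8% of the DEGs and 51.6%, 52.8% and 54.8% after quantile, median-of-ratios and TMM scaling, and the median of the log2 fold changes, over genes averaging at least 1 CPM, moved from 0.10 to 0.0052, -0.0048 and 0.0069. The number of integrin subunits past both thresholds was 1, and 2 by quasi-likelihood in edgeR and in DESeq2, the added gene being Itga4; leaving out each library gave 1 to 2. The number past P under 0.01 was 2, and 1 after quantile, median-of-ratios or TMM scaling, where Itga3 was lost, and 1 to 2 when each library was left out. Adhesion complex genes past P under 0.01 ranged from 3 to 6 when each library was left out, against 5. Of 61 tested genes of ligands and associated proteins, 6 passed P under 0.01, beside 4.17% of all tested genes. The number was 7 after median-of-ratios or TMM scaling and in edgeR's exact test, 9 by quasi-likelihood and 10 in DESeq2. It was 4 to 6 when each library was left out, and 4 with the replicate block on paired libraries.

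Control and EPS libraries share the numbers 1, 3 and 4, but the labels do not say that a number marks a shared culture. Deviations of same-numbered libraries from their group means had Pearson correlations of 0.22, -0.41 and 0.065 across genes. A fit with the replicate number as a block drops EPS replicate 2, which has no partner, and gave 276 DEGs, 1 integrin subunit past both thresholds and 2 past P under 0.01, there Itga9 and Itga4, and 2 adhesion complex genes. The same block on all 7 libraries and all 19144 genes, added after seeing the data, gave 161 DEGs, 1 integrin subunit past P under 0.01, 1 adhesion complex gene and 2 genes of ligands and associated proteins.

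Signs that changed belonged to subunits with no detected difference. With each library left out, Itga1 ranged from -0.023 to 0.24, Itga6 from -0.35 to 0.054, Itgav from -0.15 to 0.44 and Itgb5 from -0.28 to 0.18 on the log2 scale, and Itgav was -0.054 by quasi-likelihood in edgeR and -0.066 in DESeq2. The causes were not tested. Depth limits Itga1, with 22 reads in its lowest library, and Itga9 in the EPS group, with 15.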
